A study of Homo sapiens with 4 samples.

Results

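Compact 3'UTR peaks are stretches of RNA enriched by an antibody against N6-methyladenosine (m6A) that the authors labelled as lying in a 3' untranslated region and that span less than 1000 bases. They were taken from the authors' table by that label and that length alone, with no filter on fold change or p-value. They numbered 2654 of 9466 listed peaks, or 65.4% of the 4058 peaks labelled 3'UTR, and lay on 2252 genes. The cells were BEAS-2B, a human bronchial epithelial line that was immortalised in culture, transfected with a plasmid that overexpresses METTL16 or, as control, with an empty plasmid. Each arm had 1 input library and 1 library after immunoprecipitation with the m6A antibody, so there were 4 libraries in 4 groups of 1 and no replicates. No test between conditions was possible, and each difference below compares single libraries. The depth of the libraries is unknown, since levels were used as FPKM (fragments normalised to transcript length and library size) without counts. Of 8 bronchial epithelial markers, 3 had a listed peak and so a level, KRT8 with 54.2 FPKM in the overexpression input and 46.1 in the control input, KRT18 with 59.0 and 59.6, and ITGB4 with 0.69 and 0.78. Of 8 markers of other cell types, 2 had a level, CD68 with 57.7 and 41.6 FPKM and COL1A1 with 2.28 and 2.33. Markers with no listed peak were not analysed here, which for the epithelial ones includes KRT5, EPCAM and CDH1.

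In most cells m6A is placed on mRNA by the METTL3 and METTL14 complex, mainly near stop codons and along 3'UTRs, where reader proteins act on stability, translation and the choice of polyadenylation site. METTL16 is a separate methyltransferase with few known substrates, among them the U6 small nuclear RNA and hairpins in the 3'UTR of MAT2A, which encodes the enzyme that makes the methyl donor S-adenosylmethionine. MeRIP-seq finds m6A as a pile-up of immunoprecipitated fragments over input, so a peak marks a region around a site and not the modified base.

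Some compact peaks contained a microRNA precursor, and these are shown because the same bases then belong to the 3'UTR and to a hairpin. Of the RefSeq hairpins (GRCh38.p14), 5 lay wholly inside a compact peak, each on the strand of its host gene. Their 7 mature sequences follow, with the seed (bases 2 to 8) in capitals, and they carry 7 different seeds. The host peaks are those of PTMA on chromosome 2, SLC35B2 on 6, NPC2 on 14, TRIM25 on 17 and TNFRSF13C on 22.
miR-1244 (PTMA): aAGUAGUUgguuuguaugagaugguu
miR-4647 (SLC35B2): gAAGAUGGugcugugcugaggaa
miR-4709-3p (NPC2): uUGAAGAGgaggugcucuguagc
miR-4709-5p (NPC2): aCAACAGUgacuugcucuccaa
miR-3614-3p (TRIM25): uAGCCUUCagaucuugguguuuu
miR-3614-5p (TRIM25): cCACUUGGaucugaaggcugccc
miR-378i (TNFRSF13C): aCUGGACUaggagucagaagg
Of the 5 hairpins, that of miR-378i held GGACU, a common m6A sequence context, and it lies wholly inside the seed. Of 1562 RefSeq hairpins, 8.83% held GGACU on their own strand. In the authors' deposited table the TRIM25 peak (chr17:56891233-56892229, minus strand) had a log2 m6A difference of -0.34 (p = 2.09e-12), on a gene at 35.2 FPKM in the overexpression input and 32.2 in the control input. TRIM25 is a ubiquitin ligase of antiviral signalling. In the authors' deposited table the peak of NPC2 stood at -0.29, that of SLC35B2 at -0.84 and that of PTMA at 0.10. The TNFRSF13C peak stood at -2.52 there, on a gene at 0.28 and 0.25 FPKM. Thus 4 of the 5 host peaks were lower on overexpression, where 27.5% of compact peaks and 28.5% of all listed peaks were above 0. The only host peak past 2-fold was on the transcript with the lowest level.

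Other sequence could be read where a compact peak met a RefSeq promoter window, which runs across an annotated transcription start. There were 22 such overlaps on 20 genes, and 21 of them were with the start of a different gene. The exception was RSAD2, which encodes the antiviral enzyme viperin: its peak at chr2:6877401-6877826 (plus strand) holds the whole 300-base window at a start of RSAD2 itself, although the authors' label is 3'UTR. The search read GGACT and TACAGAG, the core of the METTL16 target sequence, on the strand of the peak's gene. GGACT was found in 3 overlaps and TACAGAG in 1, and the stretches below show each match in capitals (RefSeq, GRCh38.p14, plus strand).
RSAD2 (chr2:6877542-6877571): tataatacaagtGGACTgaggcagccgtga
RSAD2 (chr2:6877756-6877785): agtccctggcaTACAGAGactgctctgctc
TACC3 (chr4:1741017-1741046): tcggaggctgatGGACTcatggtccaagcc
DBNL (chr7:44065539-44065568): agggaccacagaGGACTctggacggggacg
Among all 35116 promoter windows, 25.3% held GGACT and 1.56% held TACAGAG on their own strand, so the matches are a description and mark no site. In the authors' deposited table this RSAD2 peak had a log2 fold change of -0.73, with 69.9 FPKM in the overexpression input and 47.5 in the control input. Nearer the end of RSAD2, further compact peaks stood at -0.13 and -0.56 in the authors' deposited table. The peak of TACC3, a spindle protein gene, stood at 1.16 and that of DBNL, an actin-binding adaptor gene, at -1.28 in the authors' deposited table.

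Compact 3'UTR peaks were mostly lower in the overexpression arm and often by a large factor. Of the 2654 peaks, 1325 were at 2-fold or more, 49.9% (95% exact interval 48.0 to 51.8), against 43.7% of all listed peaks. Among them 440 were higher and 885 were lower. The higher ones were 16.6% of compact peaks, close to the 16.5% of all listed peaks, while the lower ones were 33.3% (31.6 to 35.2) against 27.2%. Large differences were not particular to compact 3'UTR peaks. Among the 2453 peaks of other regions below 1000 bases, 71.5% (69.6 to 73.2) were at 2-fold or more, 674 higher and 1079 lower. An adjusted p below 0.05 in the authors' deposited table was reached by 569 compact peaks, 21.4% (19.9 to 23.1), against 25.6% of all listed peaks. All listed p-values are below 0.05, so peaks that missed it are outside these shares. The intervals given throughout are for counting peaks, which do not replicate a condition.

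The median log2 fold change of compact 3'UTR peaks was -0.56 (-0.60 to -0.53). It was -0.31 (-0.32 to -0.29) for the 1404 long-span 3'UTR peaks of 1000 bases or more and -0.29 (-0.30 to -0.27) for the 1372 stop codon peaks. Below 1000 bases, the median was -0.64 (-0.75 to -0.54) for the 2453 peaks of all other regions and -0.38 (-0.44 to -0.32) for the 347 stop codon peaks, of which 32.6% were at 2-fold or more. A value above 0 was found in 27.5% of compact peaks, close to the 28.5% of all listed peaks, and in 24.1% of long-span 3'UTR and 17.3% of stop codon peaks. Values between -0.38, the median of all listed peaks, and 0 would change sign if the table were centred on that median, which holds for 326 compact peaks. Centred in this way, the lower share of peaks at 2-fold or more became 54.3% in place of 66.8%. In the plot of fold changes by class, compact peaks run from -8.87 to 8.13.

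**Figure D1:**
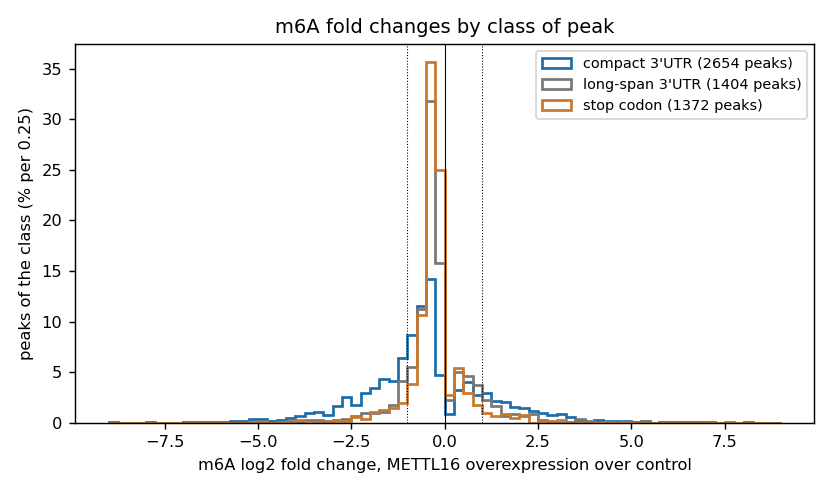
Histograms of the m6A log2 fold change (x axis; above 0 is higher on METTL16 overexpression) as the percent of peaks of each class per 0.25-wide bin (y axis), for compact 3'UTR, long-span 3'UTR and stop codon peaks; dotted lines mark 2-fold. All classes peak below 0, and 49.9% of compact peaks lie beyond the dotted lines against 19.9% and 12.2% of the other classes.

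Among listed peaks, all of which have p below 0.05, the share of compact peaks past 2-fold went with their length. The 400 peaks of 101 to 150 bases had 75.3% (70.7 to 79.4) at 2-fold or more, and the 323 of 701 to 999 bases had 19.2% (15.0 to 23.9). Their median length was 326 bases, from 101 to 998, and 213 had the shortest length. In 88.8% the length was 1 more than a multiple of 25 bases, against 27.1% of long-span 3'UTR peaks. Peaks of other regions below 1000 bases showed the same order, from 87.4% to 45.8% over the same length classes, and lay above the compact 3'UTR peaks in each. At the edge of the length rule the classes met: of 88 3'UTR peaks with 901 to 999 bases 17.0% were at 2-fold or more, and of 85 with 1000 to 1100 bases 10.6%, with overlapping intervals (9.87 to 26.6 and 4.96 to 19.2). Inside the rule, DDR1 (998 bases) had -0.44, TRIM25 (997) -0.34, MFN1 (993) 1.45 and FNTA (993) -0.19 in the authors' deposited table. Outside it, at 1001 bases, SAP30BP had -0.32, MAPKAPK2 -0.27, C2orf68 -1.02 and CD99L2 -0.46 in the authors' deposited table.

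The share also went with the input level of the gene. In the lowest of 5 equal groups by mean FPKM, 89.6% (86.7 to 92.1) of compact peaks were at 2-fold or more with a median of -1.40, and in the highest group 9.28% (6.94 to 12.1) with a median of -0.27. Within each group the compact peaks stayed above the long-span 3'UTR and stop codon peaks, for example 50.6% against 13.0% and 4.68% in the middle group. Length was not held equal, with medians there of 351, 2754 and 2258.5 bases. Against all other listed peaks, the compact share was higher in the middle group (50.6% and 35.3%) but lower in the highest (9.28% and 14.9%). Split by both length and level, the share ran from 98.1% for peaks of 300 bases or less in the lowest group to 6.73% for longer ones in the highest. The lower share among peaks at 2-fold or more hardly moved with level, between 65.4% and 69.8%. Reads per peak were not analysed here. Only peaks with p below 0.05 are listed. The parts of that filter and of coverage in the shares by length and by level were not tested.

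**Figure D2:**
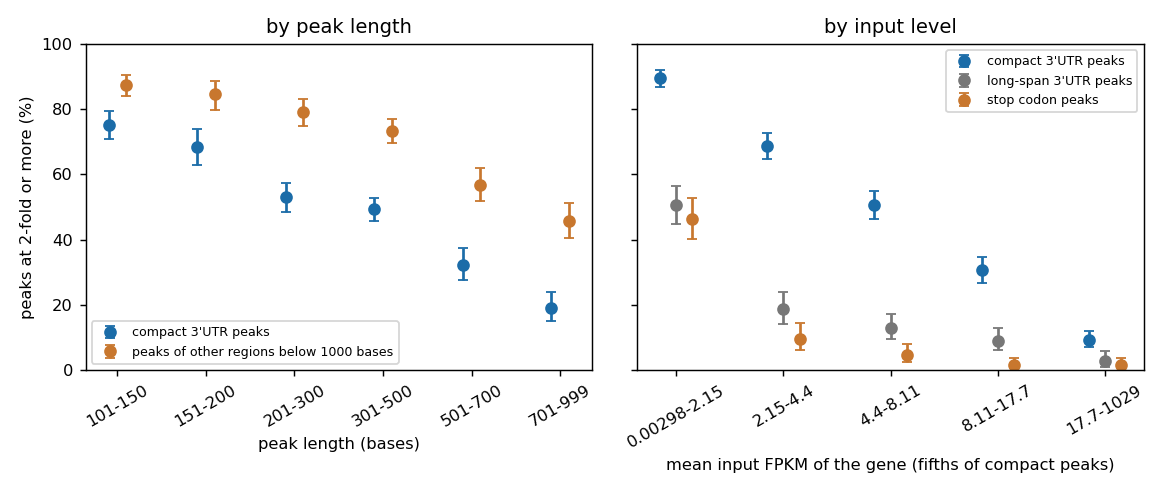
Percent of peaks at 2-fold or more (y axis, points with 95% exact intervals) by peak length in bases (left; compact 3'UTR peaks and peaks of other regions below 1000 bases) and by mean input FPKM (right; compact 3'UTR, long-span 3'UTR and stop codon peaks in 5 equal groups of compact peaks). The share of compact peaks falls from 75.3% to 19.2% with length and from 89.6% to 9.28% with input level.

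Among compact peaks at 2-fold or more with an adjusted p below 0.05, 71.5% were lower, against 64.0% of all such listed peaks. Of their genes with a symbol and at least 1 FPKM in both inputs, 62 were higher and 141 lower. The smallest p among the higher ones was that of GNAS, the stimulatory G protein alpha subunit, whose 951-base peak (chr20:58908621-58909571, plus strand) stood at a log2 fold change of 1.51 (p = 1.23e-129) in the authors' deposited table. Its input was nearly equal, 23.8 FPKM on overexpression and 23.3 in control. PKM, the pyruvate kinase of glycolysis, followed with 1.20 at 243.5 and 240.9 FPKM in the authors' deposited table. Both peaks lay before the RefSeq end of the gene, by 1621 bases in GNAS and by 10589 in PKM. A further compact peak of PKM stood at -0.07 in the authors' deposited table. The 3 compact peaks of GNAS ran from 0.12 to 1.52 there, and a peak of GNAS labelled 5'UTR stood at -1.33.

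Further higher peaks with small p were spread over genes of different kinds. NCL, which encodes the nucleolar protein nucleolin, stood at 1.03, the mitochondrial RNA-binding protein gene PTCD1 at 1.22, the splicing activator gene TRA2B at 1.01 and the translation initiation factor gene EIF3D at 1.08 in the authors' deposited table. The acetyl-carnitine enzyme gene CRAT had 2.25, the tropomyosin gene TPM4 2.47, MCRS1 1.25 and the calcium-binding protein gene SRI 1.24 in the authors' deposited table. The readthrough gene ATP6V1G2-DDX39B had 1.07 there, and its reads can be shared with DDX39B. By size, under the same limits on adjusted p and FPKM, the highest was ARIH1, a ubiquitin ligase gene, at 4.45 or 21.8-fold in the authors' deposited table (4.92 and 4.50 FPKM). SKP2, a ubiquitin ligase subunit gene of the cell cycle, had 3.25, ASCC1 3.14, the dermatan sulfate epimerase gene DSE 3.03, ZNF426 2.96, GLRX3 2.83, TRAPPC2 2.82 and the transcription factor gene POU2F1 2.80 in the authors' deposited table. The SKP2 input was 1.77 FPKM on overexpression and 2.69 in control.

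On the lower side, NPIPA7 had the smallest p (2.32e-37) with -4.53 in the authors' deposited table, but it belongs to a family of near-identical copies among which reads can be split. RPS29, a ribosomal protein gene with processed pseudogenes, had -6.08 in the authors' deposited table on an input of 2.60 and 3.85 FPKM. RRM2, the small subunit of ribonucleotide reductase, had -1.05 in the authors' deposited table, at a peak 80088 bases before the RefSeq end of its gene.

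The other lower peaks with small p had values nearer to 2-fold. SMAD7, an inhibitor of TGF-beta signalling, had -1.09 at a peak ending at its gene's end, the kinase gene MAPKAPK2 -1.003, the phosphatase gene PTPRE -1.65, the GTPase gene RHOQ -1.72 and the guidance cue gene NTN1 -1.82 in the authors' deposited table. The autophagy receptor gene CALCOCO2 had -1.10, the proton pump assembly gene VMA21 -1.09, the microtubule regulator gene STMN3 -1.34 and TPRG1L -1.09 in the authors' deposited table. Under the limits on adjusted p and FPKM given above, the largest sizes beside RPS29 and NPIPA7 were those of TTC9C at -6.90, WSB1 at -4.48, the spliceosome gene CDC5L at -4.47, TMEM167B at -3.71, the Integrator subunit gene INTS4 at -3.66 and PAG1 at -3.58 in the authors' deposited table. CDC5L was level in the inputs, at 15.6 FPKM in both arms. PAG1 also held a compact peak of the other direction, at 1.69 in the authors' deposited table.

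Among genes that supply the methyl donor, MAT2A ranked first by p. In the authors' deposited table the MAT2A peak (chr2:85544446-85545281, plus strand) had 0.67, under 2-fold, with p = 4.57e-66, and it ended at the RefSeq end of the gene. Of the 16 genes of methionine and S-adenosylmethionine supply, 9 had a compact peak, 2 above 0 and 7 below, and 1 peak was at 2-fold or more (median -0.34). Values above 0 made up 27.5% of all compact peaks. The salvage enzyme gene MTAP had -0.67 and the folate enzyme genes MTHFD2 and MTHFD1 -0.50 and -0.40 in the authors' deposited table. Of 15 m6A writers and erasers none had a compact peak, while 7 were listed with peaks of other kinds. Of 13 readers 2 had one, IGF2BP3 at -0.42 and IGF2BP2 at -0.18 in the authors' deposited table.

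The microRNA pathway had 7 compact peaks on 5 of its 13 genes, with 1 higher and 5 lower at 2-fold or more. The Argonaute genes AGO4 (at the shorter of its peaks) and AGO3 had -5.24 and -3.86 and the nuclease gene DROSHA -3.69 in the authors' deposited table, all without an adjusted p. AGO1 had peaks of both signs, 1.92 and -1.61, in the authors' deposited table. Among 34 genes of deadenylation and mRNA decay, 8 had a compact peak, 1 higher and 3 lower at 2-fold or more. BTG1 and TOB1, which bind the deadenylase, had 2.78 and -2.04, the deadenylase gene CNOT7 -1.89 and the decapping enzyme gene DCP2 -1.05 in the authors' deposited table.

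Of 20 cleavage and polyadenylation genes, 4 had 5 compact peaks, 2 of them lower at 2-fold or more and none higher. The poly(A) polymerase gene PAPOLA had -1.91 and -0.56, CPSF2 -1.13, CSTF3 0.58 and NUDT21 0.57 in the authors' deposited table. Of 27 genes of 3'UTR-binding regulators, 6 had 10 compact peaks, 3 higher and 2 lower. RC3H1 (Roquin), which degrades stem-loop mRNAs, had 2.56 and -1.27, and the double-stranded RNA-binding protein gene STAU2 had -2.25 in the authors' deposited table. Of 30 receptor tyrosine kinase and ligand genes, 7 had 8 compact peaks, 1 higher and 1 lower. The co-receptor gene NRP1 had 1.25 and 0.93, EFNB2 -0.63, FGFR1 -0.60 and DDR1 -0.44 in the authors' deposited table. These lists were chosen with results of the same table known. Their counts stand beside the 16.5% higher and 27.2% lower of all listed peaks. An adjusted p below 0.05 was reached by 3 of 9 methyl donor, 1 of 7 microRNA pathway and 2 of 8 decay peaks. It was reached by 3 of 10 regulator and 3 of 8 receptor and ligand peaks, and by 0 cleavage or reader peaks. Of all listed peaks, 25.6% reached it. The BTG1 peak and the RC3H1 peak at 2.56 have no adjusted p.

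Many compact peaks labelled 3'UTR did not lie at the annotated end of their gene. Of the 2654, 2603 could be matched to a RefSeq gene of the same symbol and chromosome, and the 3' edge of the peak lay a median of 1074 bases before the gene's end. Within 5 bases of that end were 544 peaks, 20.9% (19.4 to 22.5). More than 5000 bases before it were 484 peaks, 18.6%, and 137 lay beyond it by more than 5 bases. One TRIM25 peak, with -2.66 in the authors' deposited table, lay 37040 bases past the end. In 5.92% the peak was nearer to the start of the gene than to its end. That share was higher in the other classes, at 12.1% of matched long-span 3'UTR and 12.8% of matched stop codon peaks. More than 5000 bases before the end lay 34.7% of the long-span 3'UTR and 13.1% of the stop codon peaks. Within 5 bases of the end were 12.4% of the long-span 3'UTR and 22.9% of the stop codon peaks. RefSeq spans join all transcripts of a gene, so a shorter transcript can end inside them.

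The values differed along the gene. Peaks within 5 bases of the end were at 2-fold or more in 29.8% (26.0 to 33.8), and those more than 20000 bases before it in 74.7% (67.5 to 81.0). Their shares above 0 were 21.3% (17.95 to 25.01) and 39.4% (32.0 to 47.2). Input levels moved with this, with median FPKM of 9.87 and 3.16. Among peaks on genes with a mean of at least 5 FPKM, the shares at 2-fold or more were 16.9% (13.3 to 21.0) and 58.2% (44.1 to 71.3). These were 391 and 55 peaks, and they still differed in median FPKM (15.4 and 9.05) and median length (276 and 201 bases). The parts of level and length in the shares by distance were not tested. TPM4 and PKM, among the higher peaks, and INTS4 and RRM2, among the lower, lay more than 5000 bases before the end of their genes.

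**Figure D3:**
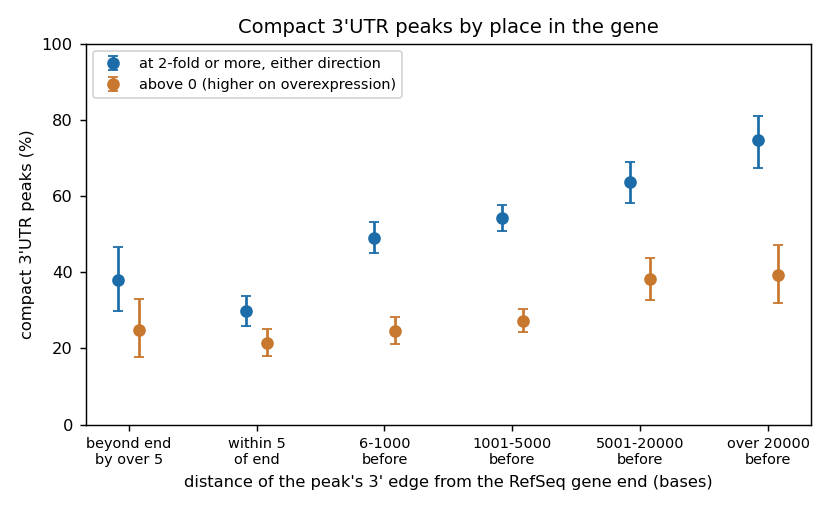
Percent of compact 3'UTR peaks (y axis, points with 95% exact intervals) at 2-fold or more and above 0, by distance in bases of the peak's 3' edge from the RefSeq gene end (x axis). Peaks within 5 bases of the end have the lowest share at 2-fold or more, 29.8%, and peaks over 20000 bases before it the highest, 74.7%.

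Compact peaks that shared bases with a short listed peak on the opposite strand mostly had nearly the same value as that peak. Of 54 such pairs in which both peaks were below 1000 bases, 51 had the same sign, 94.4% (84.6 to 98.8), and the median absolute difference was 0.15 on the log2 scale. Spearman's correlation over these 54 pairs was 0.88, and the peaks of a pair share their bases and libraries. Some compact peaks, such as those of MMP19 and CCDC90B, enter more than 1 pair. Values above 0 made up 27.5% of all compact peaks, and the share of equal signs from that lean alone was not computed. Input levels of the paired genes could be far apart: in 21 pairs they differed by at least 10-fold, and 20 of these had the same sign. Where the partner peak had 1000 bases or more, 43 of 53 pairs had the same sign and the correlation was 0.14.

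APAF1, the apoptosome gene, and ANKS1B on the other strand had 1.16 and 1.15 in the authors' deposited table, while their overexpression inputs were 6.48 and 0.0019 FPKM. PIAS1, a SUMO ligase gene, and CALML4 had -1.75 and -1.85 in the authors' deposited table, at 6.45 and 0.21 FPKM in that input. The MAT2A peak and the GGCX peak across from it had 0.67 and 0.74 there, with 551 shared bases. The exceptions in sign included the splicing factor gene SRSF9 at 0.51 against GATC at -0.53 and SUPT20H at 1.17 against EXOSC8 at -0.57 in the authors' deposited table. These pairs were chosen after their values were seen. Per the labels' protocols the libraries marked strand. Whether counting used it is not given in the sources used here, so reads of the strands may not be told apart in these pairs.

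**Figure D4:**
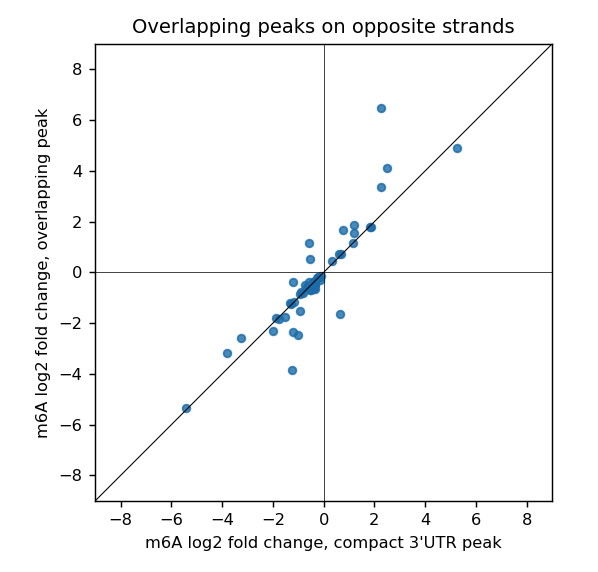
m6A log2 fold change of a compact 3'UTR peak (x axis) against that of the peak below 1000 bases that overlaps it on the opposite strand (y axis), 1 point per pair, with the line of equality. Of the 54 pairs, 51 lie in the quadrants of equal sign.

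Most genes with several compact peaks had values of 1 sign, and a smaller part held both directions. There were 330 genes with 2 or more, holding 732 peaks, and 101 of these genes, 30.6% (25.7 to 35.9), had values of both signs. In 49 genes one compact peak was at least 2-fold higher and another at least 2-fold lower. All peaks were below 0 in 186 genes and above 0 in 43. Since 27.5% of all compact peaks were above 0, peaks with no link would also often share a sign. Whether peaks of 1 gene agree beyond that lean was not tested, and these counts were not repeated after centring. At an input of at least 1 FPKM in both arms, the largest gap was in HDGFL3, a hepatoma-derived growth factor-like gene, with 6.62 and -2.59 in the authors' deposited table. ARIH1 had 4.45 at chr15:72589007-72589232 and -3.51 at chr15:72589657-72589807, a peak farther downstream, with -0.74 at another upstream of both, in the authors' deposited table. RAD51D had 8.13 and -0.72, CCDC85C 6.06 and -1.85, and the plasmalogen enzyme gene PEDS1 6.98 and -0.75 in the authors' deposited table. RPS29 held -6.08, -1.18 and 2.22 in that table. The upper values of HDGFL3, RAD51D, CCDC85C and PEDS1 have no adjusted p there, nor do HDGFL3 at -2.59 and ARIH1 at -3.51. An adjusted p below 0.05 was not reached by RPS29 at 2.22, RAD51D at -0.72, PEDS1 at -0.75 or ARIH1 at -0.74.

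Genes whose compact peaks all had the same sign included some with 4 such peaks. The 4 compact peaks of SCD, the stearoyl-CoA desaturase gene, lay between -0.36 and -0.23, and the 4 of the Mediator subunit gene MED28 between -1.69 and -1.13, in the authors' deposited table. The 4 of HSP90B1, the chaperone of the endoplasmic reticulum, lay between 0.28 and 0.65 and the 4 of DNMT1, the maintenance DNA methyltransferase, between 0.39 and 1.498 in the authors' deposited table. All 4 HSP90B1 peaks ended at least 3886 bases before the RefSeq end of the gene, and 3 of the 4 DNMT1 peaks at least 4712. A long-span 3'UTR peak of DNMT1 stood at -0.61 in the authors' deposited table. DDX60, an interferon-induced helicase gene, had values of both signs, with 5 compact peaks from -2.13 to 3.14 in the authors' deposited table.

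In genes that also had a stop codon peak, the compact 3'UTR peak was usually the lower one. There were 195 such genes, with the smallest-p peak taken for each region, and the compact peak had the lower value in 142 (72.8%). The medians were -0.58 for the compact and -0.25 for the stop codon peaks, and the median difference was -0.32 (-0.48 to -0.19). At 2-fold or more were 87 compact peaks (44.6%) and 12 stop codon peaks (6.15%), against 43.7% of all listed peaks. Stop codon peaks had no limit on length: over all of them the median was 2132.5 bases, against 326 for compact peaks. The 2 peaks of a gene were not matched for length, and the part of length in these differences was not tested. The signs differed in 50 genes, 25.6% (19.7 to 32.4), of which 33 had the compact peak above 0 and the stop codon peak below. In the 274 genes with a long-span 3'UTR peak, the medians were -0.52 and -0.29, and the signs differed in 82 genes.

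The widest gaps to the stop codon, at an input of at least 1 FPKM in both arms, were of either sign. ACADM, an enzyme gene of fatty acid oxidation, had 4.77 in the compact peak and -1.15 at the stop codon, and ARIH1 had 4.45 and -0.34, in the authors' deposited table. NUDT4 had -3.81 and 0.75, the scavenger decapping enzyme gene DCPS -3.26 and 0.76, DROSHA -3.69 and 0.31 and LCORL -0.79 and 3.15 in the authors' deposited table. Below that level, PLCXD1 had 3.34 and -1.64 (0.58 and 0.62 FPKM) and DPF3 had 4.50 and -0.42 (0.90 and 1.02 FPKM) in the authors' deposited table, gaps wider than that of ARIH1. The compact peaks of ACADM, NUDT4 and DROSHA have no adjusted p. In MAT2A both were above 0, at 0.67 and 0.19 in the authors' deposited table.

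**Figure D5:**
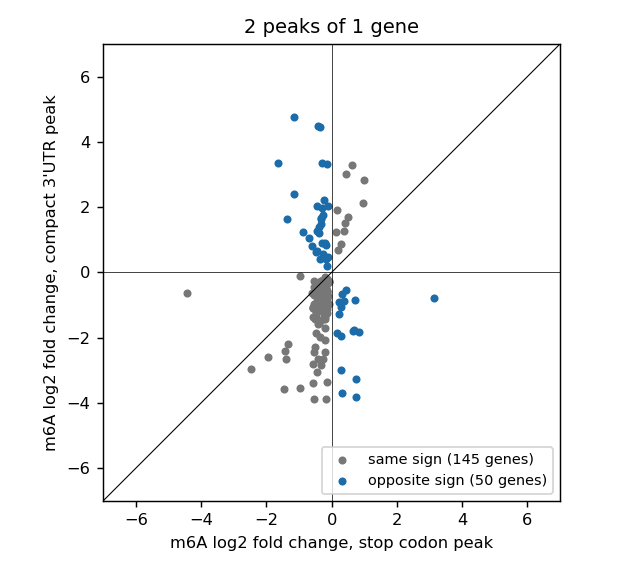
m6A log2 fold change of the stop codon peak (x axis) against that of the compact 3'UTR peak of the same gene (y axis), 1 point per gene, with the line of equality. Of 195 genes, 142 lie below the line and 50, in blue, have opposite signs.

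Input levels of the genes with compact peaks were close between the arms. For 2021 genes at 1 FPKM or more in either input, the median change was -0.02 (-0.03 to -0.02) on the log2(FPKM + 1) scale, 99.3% lay within 1.5-fold, with 4 genes at least 2-fold lower and 0 higher by that much. Over all 5467 listed genes at that level the median was also -0.02, with 99.05% within 1.5-fold, 8 genes lower and 8 higher. The largest changes were those of SENP3-EIF4A1, a readthrough gene, with 2.15 FPKM on overexpression and 13.1 in control, of TEN1 with 0.31 and 1.74, and of TMEFF1, which is listed at 0 and 1.33. Highest on overexpression were NOTCH2NLC, which has near-identical copies, with 6.90 and 3.74 FPKM, UPK3BL1 with 1.70 and 0.67 and ATP6V1G2-DDX39B with 10.5 and 6.46. In bulk samples fewer cells with a transcript and less RNA per cell cannot be told apart. Across these genes the m6A and input changes had a Spearman correlation of -0.05, and both rest on the same input libraries.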

How the data were processed

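All values are from 1 deposited table, the authors' comparison of METTL16 overexpression with control in BEAS-2B cells. RNA was depleted of ribosomal RNA, fragmented and immunoprecipitated with an m6A antibody, and strand-marked paired-end libraries were sequenced, per the labels' protocols. The submitters' processing notes name fastp 0.19.4, a read trimmer, and the build hg38. Not given in the sources used here were the aligner, the peak caller and the program of the comparison. Per peak, the authors deposited the log2 m6A fold change, in which above 0 is higher on overexpression. Beside it the authors deposited p-values, raw and adjusted; the adjusted one is empty for 298 compact peaks, all at 2-fold or more. The authors deposited input levels as FPKM per gene, empty for 13 compact peaks. The remaining deposited value is the peak length in bases from first to last base.

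Peaks at 2-fold or more are those 1 or more from 0 on the log2 scale, which equals the authors' mark in 100% of lines. The 95% intervals are Clopper-Pearson (exact) for shares and from order statistics for medians. Input changes used a pseudocount of 1. With 1 library per group there is no replicate error and no test. Distances used RefSeq gene spans of the same assembly. Gene lists, named peaks and members were chosen with earlier results of these data known. Named were MAT2A, the 12 compact peaks per direction with the smallest p and the 8 of largest size at an adjusted p below 0.05 and at least 1 FPKM in both inputs, up to 4 per list, the 6 widest gaps within a gene and to the stop codon peak at that FPKM, and 3 input changes per direction; others were named after their values were seen. Summaries were tested on simulated data (Python 3.11.15, pandas 2.3.3, scipy 1.17.1).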

Additional observations from a re-analysis of the deposited data

How the results depend on the processing

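The share of compact 3'UTR peaks at 2-fold or more, 49.9%, was 58.5% for spans below 500 bases, 40.1% at an adjusted p below 0.05, 46.2% after centring on the median of all listed peaks, 45.2% at an input of at least 1 FPKM in both arms, 70.6% with a 1.5-fold threshold and 45.4% within 5000 bases of the RefSeq gene end, the last chosen after seeing the data. The lower share among them, 66.8%, was 71.5% at an adjusted p below 0.05 and 54.3% after centring. The median of -0.56 was -0.66 below 500 bases, -0.51 at an adjusted p below 0.05 and -0.18 after centring. The counts of 440 higher and 885 lower were 65 and 163 at an adjusted p below 0.05 and 207 and 400 with a 4-fold threshold. The share of genes whose compact and stop codon peaks differ in sign, 25.6%, was 37.1% where either was at 2-fold or more and 52.8% after centring. The causes were not tested. In the other 28 combinations of a result and a setting the value stayed within its interval or, for counts, within 1.5 times. Planned searches for motifs in all peaks and for 3'UTR exons were not run, since no genome sequence or exon annotation was used here. No paired analysis was possible because each group has 1 library. Without replicates or counts, neither the spread between cultures nor the depth behind a peak is known.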
